A study of Homo sapiens with 6 samples.

Results

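The MYC, MAX and MXD network consists here of 10 genes, which were picked by symbol from the 27470 genes in the deposited table of counts: MYC, MYCN, MYCL, MAX, MXD1, MXI1, MXD3, MXD4, MNT and MGA. All 10 were present in the table, and 9 of them passed the filter on low counts and were tested; MYCN did not. The libraries came from 22Rv1, a prostate cancer cell line of human origin that grows despite castration, which had been infected with a lentivirus carrying ABHD5 under a doxycycline (Dox)-inducible promoter and selected with G418; whether they are 1 clone is not given in the sources used here. The untreated group, labelled Control, comprised 3 libraries of these cells grown without Dox, and the group labelled OE comprised 3 libraries of the same cells grown with Dox; both were cultured for 48 h and both carried the transgene. The Dox dose used for these libraries is not given. Because parent cells with Dox were not analysed here, the effects of Dox and of ABHD5 cannot be told apart, and since nothing states whether replicates were separate cultures, p-values measure only the spread between these libraries.

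MYC proteins are basic helix-loop-helix leucine zipper factors that bind DNA only as dimers with MAX, at a short palindromic motif called the E-box, and they drive genes for ribosome production, metabolism and cell division. The MXD proteins, MXI1, MNT and MGA dimerize with the same partner, occupy the same motif and recruit corepressors, so that they oppose MYC. In many tissues MYC is highest in dividing cells, whereas several MXD genes are raised as cells leave the cycle and differentiate; MXD3 is an exception and is found in dividing cells.

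The libraries held 3394672 to 7271771 reads on genes, and a count of 3, taken as the limit of detection, corresponded to 0.413 to 0.884 CPM (counts scaled to library size). Reads on no annotated gene made up 32.5% to 34.6% of the listed reads without Dox and 35.6% to 39.5% with Dox, and the part of this in the results was not tested. ABHD5, the induced gene, had a log2 fold change of 0.91 with Dox with a standard error of 0.15 and an adjusted p of 1.978e-04 (quasi-likelihood, QL, test of edgeR, Benjamini-Hochberg adjusted over the 12233 tested genes), and no library with Dox overlapped those without. Of 8 prostate luminal markers, all were tested and 4 were lower with Dox, namely KLK2 (-1.69 on the log2 scale), KRT18 (-0.57), EPCAM (-0.52, not passing without replicate 3 without Dox) and TMPRSS2 (-1.06). HOXB13, FOLH1, KRT8 and KLK3 did not pass. Of all tested genes 13.7% were lower, and the part of these markers in the results was not tested. The 10 markers of fibroblast, immune, endothelial and liver cells summed to 5.27 to 6.98 CPM per library without Dox and 4.73 to 8.28 with Dox, and 4 of them (PDGFRB, CD3E, PECAM1 and CDH5) had 0 counts in each library. The only one tested, COL1A1, was higher with Dox (1.22, adjusted p = 0.0313, edgeR QL test), a call lost in 6 of 14 alternatives. In bulk RNA, fewer cells with a transcript and less of it per cell cannot be told apart.

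With Dox, MYC was lower and MXD4, which encodes one of its antagonists, was higher; these were the only members past the threshold of an adjusted p under 0.05. The MYC mRNA level was 0.613 times that without Dox, and MXD4 was 2.36-fold higher. MAX, MXD1, MXD3, MXI1, MNT, MGA and MYCL did not pass. The call rate was thus 2 of the 9 tested members (22.2%), beside 25.5% of all tested genes; 1 member was higher, beside 11.9% of all tested genes, and 1 was lower, beside 13.7%. With library totals in place of TMM normalization, MXD4, MXD1 and MNT passed as higher and MYC did not pass. That scaling moved the median change over all tested genes, in log2, from 0.02 to 0.14 and the share of called genes that were higher from 46.4% to 65.7%.

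**Figure D1:**
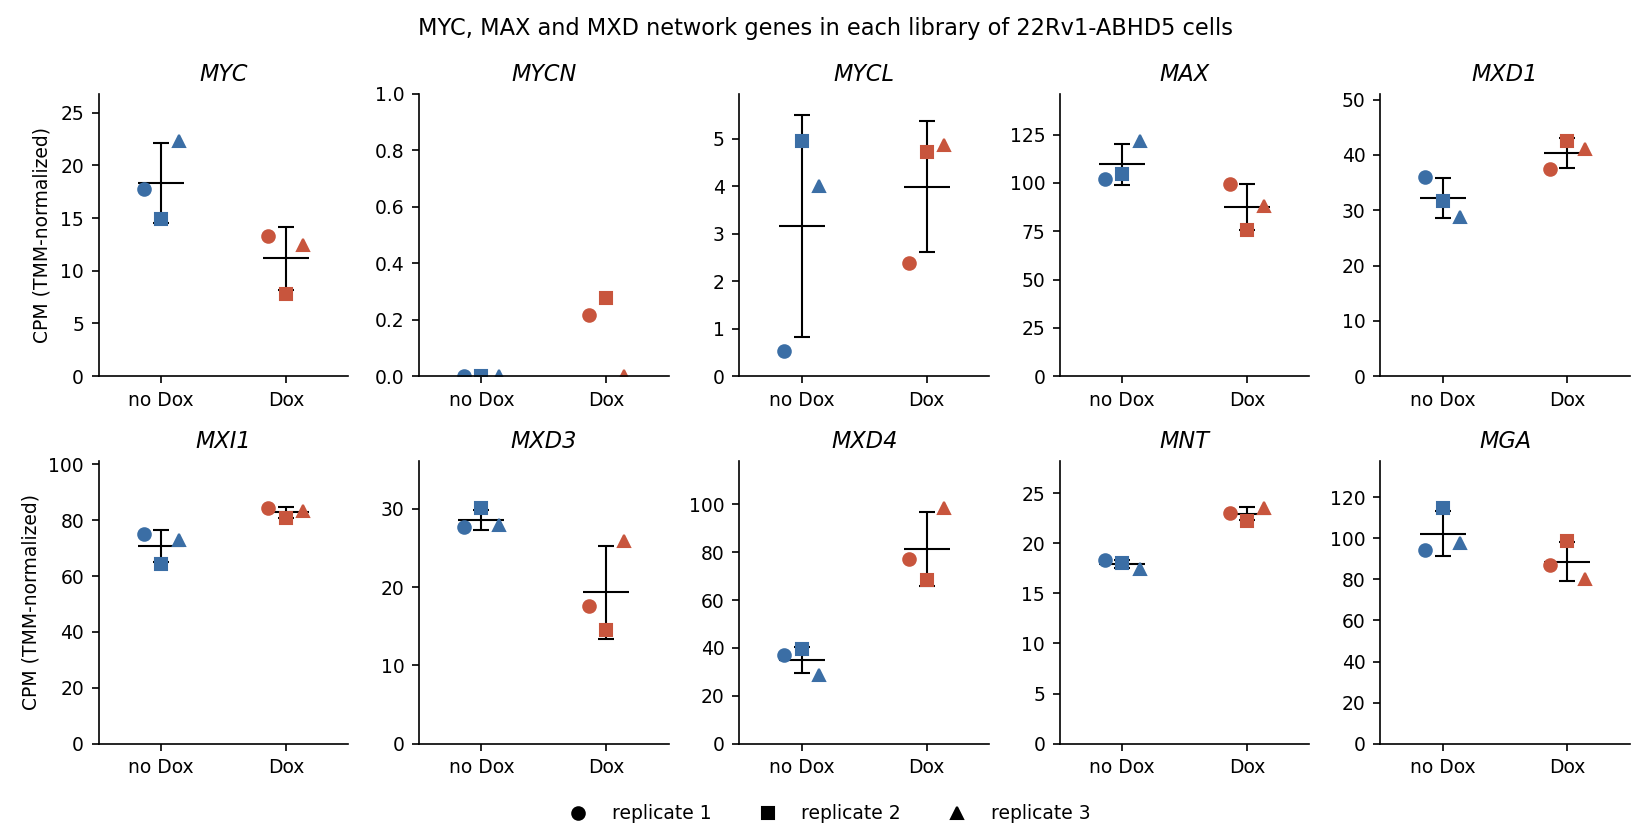
CPM after TMM normalization (y axis, from 0) of the 10 network genes in each library without Dox (blue) and with Dox (red). Symbols mark the replicate, and black bars show the mean ± SD of 3 libraries (not drawn for MYCN, which had at most 1 count); MYC lay at 14.9 to 22.3 CPM without Dox and 7.79 to 13.3 with Dox, and MXD4 at 28.8 to 39.4 and 68.5 to 98.4.

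The 3 MYC genes were measured at different precision. MYC, the family member that most dividing cells use, had 68, 48 and 128 counts in replicates 1, 2 and 3 without Dox and 61, 28 and 95 counts with Dox. These counts gave 17.8, 14.9 and 22.3 CPM without Dox and 13.3, 7.79 and 12.5 CPM with Dox. Each library with Dox lay below each library without Dox, by a narrow margin between replicate 1 with Dox and replicate 2 without Dox. Without Dox the level averaged 18.3 ± 3.76 CPM, and with Dox it averaged 11.2 ± 2.96 CPM (both SD, n = 3). On the log2 scale the change was -0.71 (SE 0.23, 95% interval -1.20 to -0.21, adjusted p = 0.0349, edgeR QL test). MYC lies on chromosome 8 of hg38 on the plus strand. An antisense long noncoding gene, CASC11, shares 3.18% of its exonic bases and was at 0.436 ± 0.399 CPM (SD, n = 3) without Dox.

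The call on MYC rested on several single libraries. Without replicate 3 without Dox the log2 fold change was -0.53 (adjusted p = 0.178, edgeR QL test), without replicate 2 with Dox it was -0.54 (adjusted p = 0.0965, same test), and without replicate 1 without Dox it was -0.75 (adjusted p = 0.0676, same test). Under library totals alone it was -0.58 (adjusted p = 0.0748, same test). In each of these the direction was downward, and in each of the other 11 alternatives MYC stayed past the threshold. Some of the 11 were close to it. The adjusted p was 0.0499 with limma on the deposited normalized values, 0.0495 under upper quartile normalization (edgeR QL test) and 0.0449 with DESeq2. It was lowest without a filter on low counts, at 0.0109 (edgeR QL test).

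MYCN, the neuronal family member on chromosome 2 (15940550 to 15947007, plus strand), had 0, 0 and 0 counts without Dox and 1, 1 and 0 with Dox. Both conditions were below the limit of detection, so no fold is given. MYCL, on chromosome 1 (39895428 to 39902256, minus strand), had 2, 16 and 23 counts without Dox and 11, 17 and 37 with Dox. Replicate 1 without Dox stood below the other libraries and below the limit of detection. The log2 fold change of MYCL was 0.34 with a 95% interval of -0.68 to 1.37 (adjusted p = 0.652, edgeR QL test), and it was -0.15 without replicate 1 without Dox, so that no direction could be given at this depth.

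MAX, the shared dimerization partner, is encoded on the minus strand of chromosome 14 (65006174 to 65102695). Its level was 101.9, 104.8 and 121.8 CPM without Dox and 99.2, 75.4 and 87.9 CPM with Dox. The conditions were separated by a gap between 99.2 and 101.9 CPM, which closed under library totals alone. The log2 fold change was -0.32 (95% interval -0.61 to -0.04), and it did not pass the threshold (adjusted p = 0.0920, edgeR QL test). FNTB, on the other strand, shares 13.1% of the exonic bases of MAX and had 0.646 ± 0.544 CPM (SD, n = 3) without Dox.

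**Figure D2:**
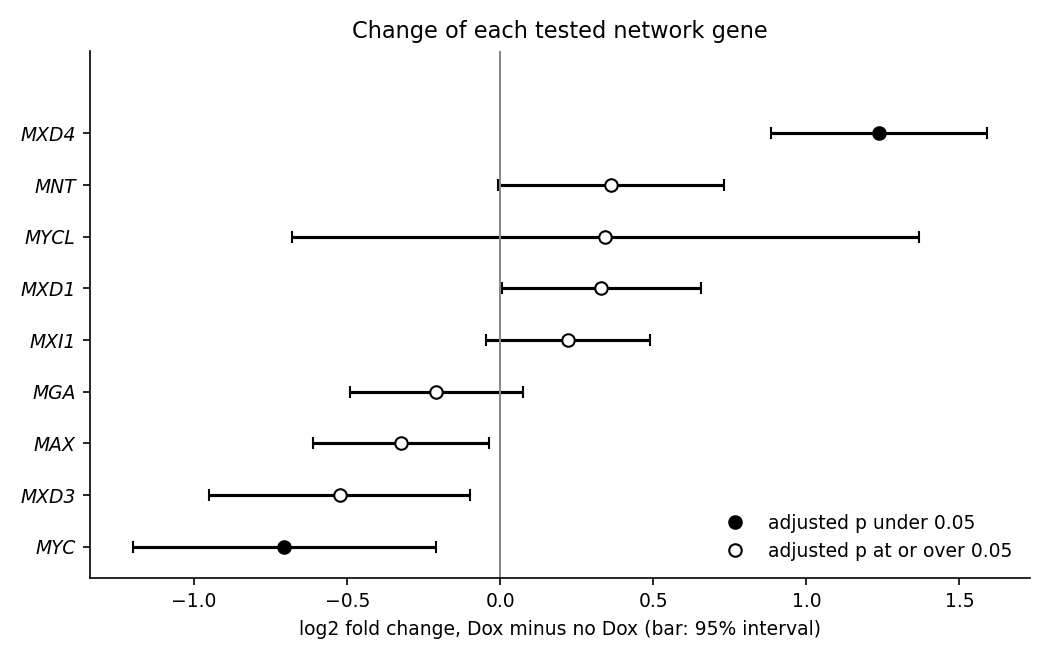
Log2 fold change with Dox minus without Dox (x axis) of the 9 tested network genes, with 95% intervals from edgeR's quasi-likelihood fit of 3 libraries per condition. Filled points have an adjusted p under 0.05; these are MYC at -0.71 and MXD4 at 1.24, and the interval of MYCL is the widest, from -0.68 to 1.37.

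Among the 6 MYC antagonists, only MXD4 passed the threshold, and of all tested genes 25.5% passed it. MXD4, a repressor that binds the SIN3 corepressor, lies on the minus strand of chromosome 4 (2247432 to 2262109). It had 141, 127 and 165 counts without Dox and 354, 246 and 749 counts with Dox. The level was 36.8, 39.4 and 28.8 CPM without Dox and 77.0, 68.5 and 98.4 CPM with Dox. The lowest library with Dox was well above the highest without Dox, and replicate 3 was at once the lowest without Dox and the highest with it. On the log2 scale the change was 1.24 (SE 0.17, 95% interval 0.88 to 1.59, adjusted p = 3.223e-05, edgeR QL test). It ranged from 1.07 to 1.36 over the 15 alternatives and passed the threshold in each. The only other gene annotated over its exons is MIR4800, a microRNA gene that had 0 counts.

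MXD1, a classical differentiation-induced antagonist on the plus strand of chromosome 2 (69897688 to 69942945), was at 36.0, 31.6 and 28.8 CPM without Dox and 37.4, 42.6 and 41.0 CPM with Dox. MNT, an antagonist that is present in both resting and dividing cells, lies on the minus strand of chromosome 17 (2384073 to 2401104). MNT was at 18.3, 18.0 and 17.5 CPM without Dox and 23.1, 22.3 and 23.5 CPM with Dox. MXI1, also known as MXD2, on the plus strand of chromosome 10 (110207605 to 110287365), was at 75.2, 64.5 and 73.0 CPM without Dox and 84.4, 80.7 and 83.4 CPM with Dox. SNRNP27, at 101 CPM without Dox, shares 3.73% of the exonic bases of MXD1 on the same strand, and an antisense lncRNA shares 12.2% of those of MNT. For MXD1, MNT and MXI1 alike, every library with Dox lay above every library without Dox. The differences were small, and none passed the threshold. The log2 fold change was 0.33 for MXD1 (95% interval 0.005 to 0.66, adjusted p = 0.130, edgeR QL test), 0.36 for MNT (-0.01 to 0.73, adjusted p = 0.144) and 0.22 for MXI1 (-0.05 to 0.49, adjusted p = 0.219). Under library totals alone MXD1 was at 0.45 (adjusted p = 0.0384, same test), MNT at 0.48 (adjusted p = 0.04997) and MXI1 at 0.34 (adjusted p = 0.0534).

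The promoters of the members were read for the E-box (CACGTG), a motif bound by FOXO factors (GTAAACA) and 2 E2F motifs. The FOXO motif was chosen because MXI1 is a known FOXO target in other cells. For 9 of the 10 members, MYC being the other, 14 promoter windows of 300 bases were taken from RefSeq (GRCh38.p14), from 250 bases before to 50 after each annotated start. On either strand, the E-box was present in 2 windows, those of MXD4 and MNT, and in 7.26% of all 35116 windows. The FOXO motif was present in 2 windows, both of MXI1, and in 3.42% of all windows. For the 2 E2F motifs searched, TTTCCCGC was in none of the 14 windows (1.63% of all), and TTTGGCGC was in a window each of MYCN and MGA (0.652% of all). MYCL, MXD1, MXD3 and MAX held none of these motifs. The motifs do not overlap each other in these windows, and a match describes the sequence only. The 4 windows with an E-box or FOXO motif are printed with that motif in capitals, 5′ to 3′ on the strand of the gene. They are those of MXD4 (chr4:2262060-2262359, minus strand), MNT (chr17:2401011-2401310, minus strand) and 2 of the 3 starts of MXI1 (chr10:110209981-110210280 and chr10:110225746-110226045, plus strand).
MXD4: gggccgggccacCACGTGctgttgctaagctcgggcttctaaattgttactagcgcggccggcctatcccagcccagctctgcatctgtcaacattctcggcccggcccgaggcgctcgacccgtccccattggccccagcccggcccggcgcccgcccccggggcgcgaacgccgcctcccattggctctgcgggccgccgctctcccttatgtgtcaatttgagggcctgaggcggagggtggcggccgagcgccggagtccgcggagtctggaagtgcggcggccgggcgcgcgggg
MNT: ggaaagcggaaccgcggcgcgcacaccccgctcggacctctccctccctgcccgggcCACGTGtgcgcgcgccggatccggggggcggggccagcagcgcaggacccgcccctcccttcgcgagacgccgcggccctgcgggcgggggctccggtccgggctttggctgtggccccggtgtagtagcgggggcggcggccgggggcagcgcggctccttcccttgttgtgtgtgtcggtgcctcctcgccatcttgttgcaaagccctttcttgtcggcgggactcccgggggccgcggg
MXI1 start 2: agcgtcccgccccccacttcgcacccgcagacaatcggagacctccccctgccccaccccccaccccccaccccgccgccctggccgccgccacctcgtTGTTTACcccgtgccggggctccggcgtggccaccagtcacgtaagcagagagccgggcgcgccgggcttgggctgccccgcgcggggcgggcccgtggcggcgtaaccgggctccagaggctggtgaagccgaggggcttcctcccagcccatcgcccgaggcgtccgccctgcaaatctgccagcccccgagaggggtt
MXI1 start 3: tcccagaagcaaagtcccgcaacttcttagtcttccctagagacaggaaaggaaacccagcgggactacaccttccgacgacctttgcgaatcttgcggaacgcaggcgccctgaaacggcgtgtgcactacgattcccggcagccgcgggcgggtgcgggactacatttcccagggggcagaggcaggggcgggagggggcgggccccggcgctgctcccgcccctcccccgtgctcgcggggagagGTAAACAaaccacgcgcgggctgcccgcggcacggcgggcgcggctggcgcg
The E-box begins 238 bases before the start of MXD4 and 193 bases before that of MNT. The FOXO motif begins 151 bases before the second listed start of MXI1 and 2 bases before the third, so that it runs across it. MXD4, with an E-box, had a log2 fold change of 1.24, and MNT, also with an E-box, had 0.36 and did not pass the threshold.

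MXD3 and MGA had log2 fold changes under 0. MXD3, the antagonist that is linked to dividing cells, lies on the minus strand of chromosome 5 (177301461 to 177312757). It was at 27.7, 30.1 and 27.9 CPM without Dox and 17.6, 14.5 and 25.9 CPM with Dox. Replicate 3 with Dox was close to the libraries without Dox, and the others with Dox were well below them. The log2 fold change was -0.52 (95% interval -0.95 to -0.10, adjusted p = 0.0665, edgeR QL test). Without replicate 3 with Dox it was -0.82 (adjusted p = 0.00516, same test). It also passed without a filter on low counts (-0.54, adjusted p = 0.0325, same test). The change was smaller when replicate 2 with Dox was left out (-0.37, edgeR QL adjusted p = 0.183), likewise for replicate 1 with Dox (-0.45, adjusted p = 0.191) and under library totals alone (-0.40, adjusted p = 0.155). RAB24, on the same strand, shares 19.5% of the exonic bases of MXD3, toward the 3′ end of its longest transcripts. RAB24 averaged 30.3 ± 2.82 CPM without Dox, against 36.4 ± 2.19 CPM with it (both SD, n = 3), a log2 difference of 0.28 that did not pass (adjusted p = 0.212, same test). PRELID1, on the other strand, shares 24.2% and was at 0.795 ± 0.96 CPM (SD, n = 3) without Dox. The counts of MXD3 are uncertain for this reason, and the share of its reads affected was not tested.

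MGA, a large protein that combines a MAX-binding domain with a T-box domain and recruits a Polycomb complex, lies on the plus strand of chromosome 15 (41621134 to 41773081). It was at 94.6, 114.7 and 97.8 CPM without Dox and 87.2, 98.8 and 80.1 CPM with Dox. The conditions overlapped, and the log2 fold change was -0.21 (95% interval -0.49 to 0.07, adjusted p = 0.278, edgeR QL test).

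In 7 of the 9 tested members (77.8%) the libraries of the conditions did not overlap, 4 with higher values with Dox and 3 with lower values. This was the case for 39.5% of all tested genes. With CPM on library totals, MAX and MXD3 overlapped and 5 of 9 members remained apart, beside 41.5% of all tested genes. The members were chosen with earlier results of these data known, so neither share was tested.

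Since MYC and its antagonists compete for MAX, the ratio of MYC counts to those of each other tested member was taken within each library; no scaling between libraries enters it, and MYCL was left out for its low counts. The log2 ratio of MYC to MXD4 was -1.05, -1.40 and -0.37 in replicates 1, 2 and 3 without Dox and -2.54, -3.14 and -2.98 with Dox. Every library with Dox was below every library without Dox, and the ratio was 3.84-fold lower on average. The ratio of MYC to MNT was 2.13-fold lower, to MXD1 2.09-fold lower and to MXI1 1.94-fold lower, and for each of these the conditions did not overlap. The ratio of MYC to MAX was 1.32-fold lower, but replicate 2 without Dox and replicate 3 with Dox all but coincided, both at -2.82. The ratios of MYC to MGA and to MXD3 overlapped between the conditions, at 1.44-fold and 1.09-fold lower. Every ratio holds the same MYC counts, and MYC alone was at 0.613 times its level without Dox after TMM normalization. A fall of MYC thus enters each ratio, whatever the other gene did. MNT, MXD1 and MXI1 did not pass by themselves, and no such ratios to genes outside the network were taken. The ratios were built from the members' own counts and were not tested. They show changes in mRNA and not in protein or in dimers.

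**Figure D3:**
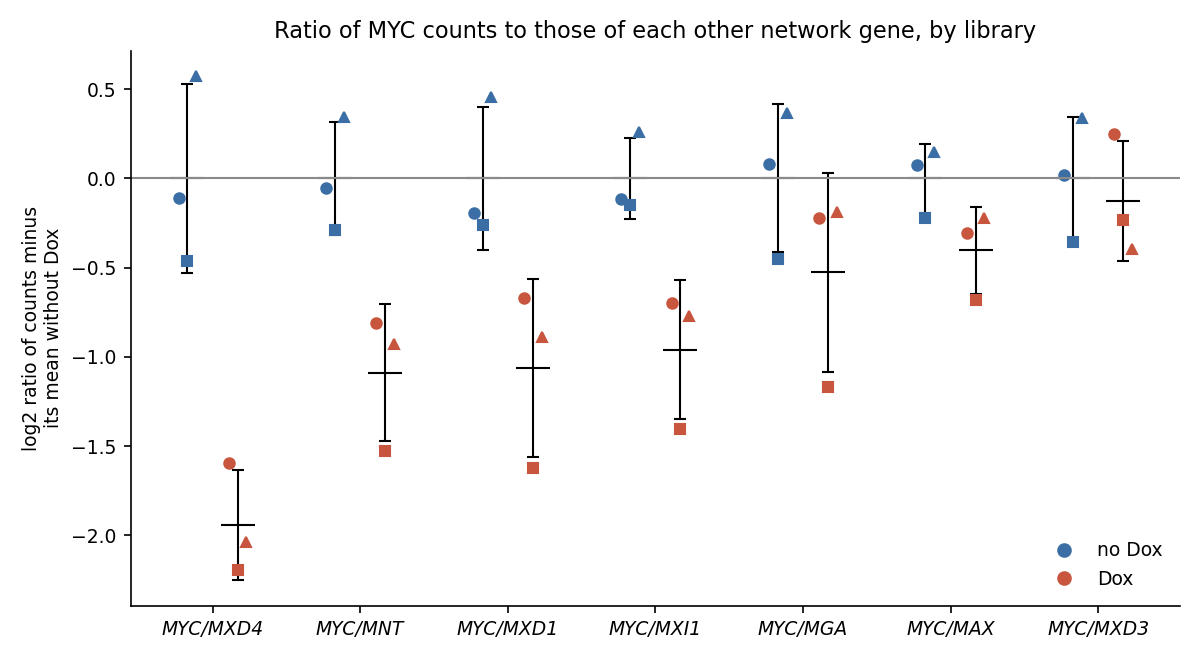
Log2 ratio of MYC counts to the counts of each other network gene in the same library, with the mean without Dox set to 0 (y axis). Blue points are libraries without Dox, red points libraries with Dox, symbols mark replicates as circle, square and triangle for 1, 2 and 3, and black bars are the mean ± SD of 3 libraries; the ratio to MXD4 differs most, by -1.94 on the log2 scale.

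The parallel MLX branch of the network senses sugar phosphates. MLX, the partner that takes the place of MAX, had a log2 fold change of -0.05 and MLXIP, also known as MondoA, 0.14; neither passed the threshold (adjusted p = 0.847 and 0.455, edgeR QL test). MLXIPL, also known as ChREBP, was higher, averaging 13.7 ± 1.55 CPM without Dox and 22.0 ± 6.10 CPM with it (both SD, n = 3). On the log2 scale it was up by 0.68 (SE 0.22, adjusted p = 0.0332, same test), and its libraries overlapped. The call on MLXIPL was lost in 7 of 15 alternatives, with limma on the counts or on the deposited normalized values, and without any 1 of replicates 1, 2 and 3 without Dox or 2 and 3 with Dox (0.54 to 0.88 over all 15, adjusted p up to 0.101). The direct targets TXNIP and ARRDC4 had -0.16 and 0.003 and did not pass. Of the 5 genes listed for this branch 20% were called, beside 25.5% of all tested genes.

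Cofactors of the network were mostly not called, like most tested genes. Of 21 corepressors and coactivators, 6 were lower, 0 were higher and 15 did not pass, with a median log2 fold change of -0.06 beside 0.02 over all tested genes; 28.6% were called, beside 25.5% of all tested genes. Under library totals alone the median was 0.06, beside 0.14 over all tested genes, with 3 higher and 4 lower. With replicate 1 without Dox left out, 3 were lower. Without replicate 1 without Dox or 3 with Dox the median was -0.13, and without replicate 1 or 2 with Dox it was -0.14. The lower ones were SAP30, HDAC1, RUVBL1, RUVBL2, ACTL6A and HCFC1. ACTL6A lost its call in 12 of 15 alternatives, HDAC1 in 6 and HCFC1 in 1, without replicate 1 without Dox. SAP30, a subunit of the SIN3 corepressor complex, averaged 220 ± 3.99 CPM without Dox and 131 ± 7.26 CPM with it (both SD, n = 3), a log2 difference of -0.75 (adjusted p = 1.472e-04, edgeR QL test). RUVBL1, an ATPase of chromatin complexes that MYC recruits, had -0.66 (adjusted p = 6.440e-04, same test). SIN3A and SIN3B, the scaffolds that MXD proteins bind, had -0.24 and 0.41 and did not pass. Of the 10 partners of MGA in its Polycomb complex, TFDP2, a dimerization partner of E2F factors, was higher by 0.63 on the log2 scale (adjusted p = 0.00215, same test), and CBX3, a chromatin reader of the HP1 family, had a log2 fold change of -0.85 (adjusted p = 1.442e-04, same test). The other 8 did not pass, among them E2F6 at -0.34 and PCGF6 at -0.20. Of the 10 partners 20% were called, beside 25.5% of all tested genes.

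Genes that control the stability of MYC protein mostly did not pass the threshold, like most tested genes. Of 19 listed, 17 were tested, 3 were lower, 0 were higher and 14 did not pass, with a median of -0.10; 17.6% were called, beside 25.5% of all tested genes. Leaving out replicate 1, 2 or 3 with Dox gave medians of -0.28, -0.15 and -0.08. Leaving out replicate 1, 2 or 3 without Dox gave medians of -0.16, -0.07 and -0.18. Under library totals alone the median was 0.02, beside 0.14 over all tested genes, and 1 gene was higher. The 3 lower genes were PLK1 (-1.46, adjusted p = 4.369e-06, edgeR QL test), AURKA (-1.27, adjusted p = 6.139e-06, same test) and CIP2A (-0.66, adjusted p = 0.00257, same test, counted under the older symbol KIAA1524). PLK1 and AURKA are mitotic kinases that can also protect MYC proteins from degradation, and CIP2A is an inhibitor of the phosphatase that destabilizes MYC. FBXW7, the ubiquitin ligase subunit that recognizes phosphorylated MYC, had 0.11, and GSK3B, which phosphorylates it, had 0.17; neither passed (adjusted p = 0.578 and 0.335, same test).

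In the lists of targets that MYC activates, no gene was higher as reported. Of the 57 genes of the hallmark list of MYC targets V2 (MYC itself left out), all were tested; 28 were lower, 0 were higher and 29 did not pass. Their median log2 fold change was -0.44, beside 0.02 over all tested genes, and 49.1% were called, beside 25.5%. Under library totals alone the counts were 20 lower and 1 higher and the median was -0.32, beside 0.14 over all tested genes. The members with the smallest adjusted p were PLK1 and CBX3, given already. Nucleolar and ribosome-production genes among those that passed included NOP56 at -0.67, NOLC1 at -0.62 and NPM1 at -0.59, whereas RRP12 at 0.02 and NIP7 at 0.11 did not pass. These were picked after their values were seen. Without MCM4, MCM5, PLK1, PLK4 and UNG, genes of DNA replication, DNA repair and mitosis that were set aside after values were seen, 24 of 52 were lower and the median was -0.40.

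Of 22 other classical direct targets, 19 were tested, 10 were lower, 0 were higher and 9 did not pass, with a median of -0.49. The share called was 52.6%, beside 25.5% of all tested genes. Under library totals alone 8 were lower and 1 was higher, with a median of -0.37, beside 0.14 over all tested genes. Without replicate 1 without Dox, 1 was also higher. ODC1, the rate-limiting enzyme of polyamine synthesis, averaged 228 ± 31.3 CPM without Dox and 123 ± 21.9 CPM with it (both SD, n = 3), a log2 difference of -0.89 (adjusted p = 2.527e-04, edgeR QL test). FBL, which methylates ribosomal RNA, had -0.85 (adjusted p = 2.737e-04, same test). LDHA had -0.60, whereas NCL, with -0.42, did not pass (adjusted p = 0.0533, same test), though it did in 5 of 15 alternatives. CCND2 and EIF4A1 had 0 counts in each library, and TERT did not pass the filter. A count of 0 does not show that a gene was silent. Reads ambiguous between genes, 3.05% to 3.37% of the listed reads, were left out, and their part in these zeros was not tested.

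Of 8 genes listed by hand as repressed through MYC and MIZ1, 3 were higher and 1 was lower, with a median of 0.13. Whether MYC represses each of them through MIZ1 was not tested. The share called was 50%, beside 25.5% of all tested genes. Under library totals alone 4 were higher and 1 was lower, with a median of 0.25, beside 0.14 over all tested genes. The median was 0.08 without replicate 1 without Dox or replicate 3 with Dox, and 0.21 without replicate 2 with Dox. GADD45A, a stress-induced growth arrest gene, averaged 32.6 ± 1.89 CPM without Dox and 79.8 ± 9.25 CPM with it (both SD, n = 3), a log2 difference of 1.30 (adjusted p = 4.216e-06, edgeR QL test). CDKN1A, the inhibitor of cyclin-dependent kinases called p21, had 0.68 (adjusted p = 4.722e-04, same test), and NDRG2 was also higher, at 0.71 (adjusted p = 0.0422, same test). NDRG2 lost its call in 5 of 15 alternatives, under DESeq2 and without replicate 1 or 3 without Dox or replicate 2 or 3 with Dox (adjusted p up to 0.218). CDKN2C, another such inhibitor, had -0.74 (adjusted p = 0.00199, same test). CDKN1B and CDKN2B, with 0.24 and 0.03, and NDRG1 and CEBPA, with -0.12 and -0.14, did not pass. CDKN1A and GADD45A are also targets of p53.

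Cell cycle genes were lower in the same libraries. Of 20 S phase and mitosis genes, 19 were tested and all 19 were lower, beside 13.7% of all tested genes, with a median of -0.91. Their summed level was 5945 to 6288 CPM per library without Dox and 2927 to 3353 with Dox. Under library totals alone 17 of the 19 were lower. The part of the cell cycle change in the levels of MYC, MXD4, MXD3 and their targets was not tested. Over the 7 lists of partners, targets and stability genes, 135 of 140 genes were tested, 47 were lower and 5 higher, so that 38.5% were called beside 25.5% of all tested genes.

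**Figure D4:**
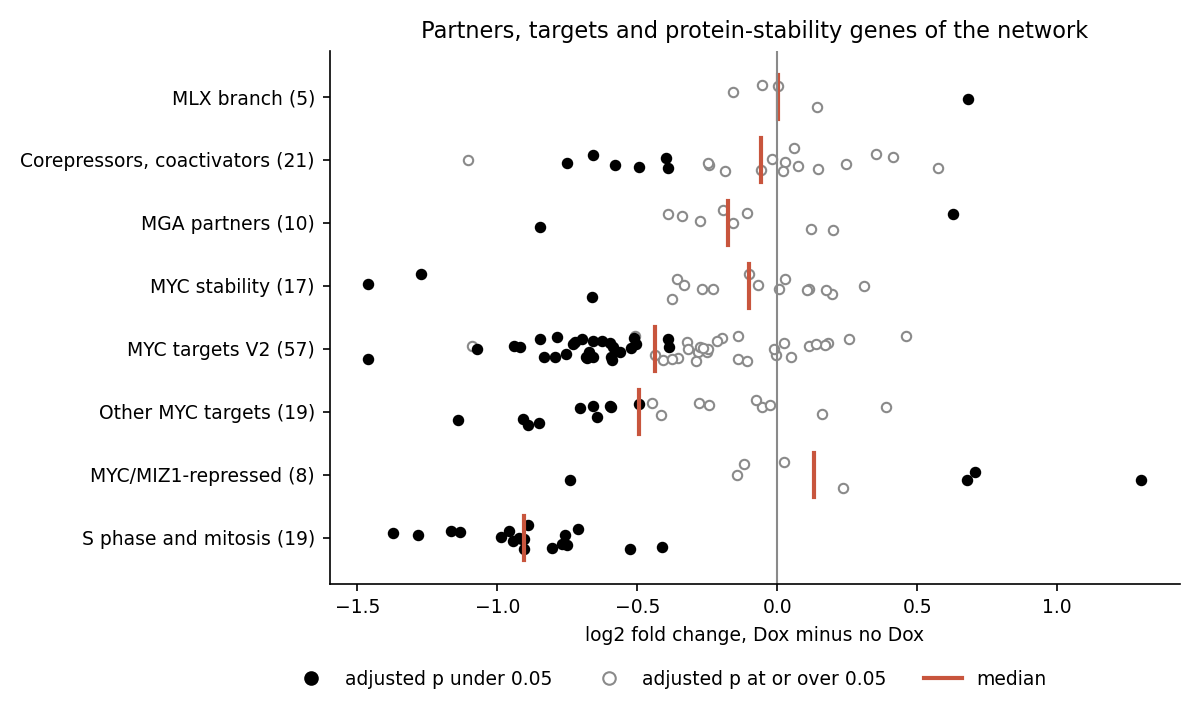
Log2 fold change with Dox minus without Dox (x axis) of each tested gene in the 7 network lists and in the list of S phase and mitosis genes, with the number tested in parentheses. Filled points have an adjusted p under 0.05 and red lines mark medians; the 57 MYC targets V2 have a median of -0.44 and the 19 S phase and mitosis genes one of -0.91.

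The genes whose pattern was most like that of MYC over the 6 libraries, among 9412 with a mean of at least 50 counts, were ELOVL5, a fatty acid elongase (r = 0.995), KPNA2, a nuclear import receptor (r = 0.994), and HEATR3, a ribosomal protein import factor (r = 0.994). These are correlations of log2 CPM over 6 libraries that share depth and condition, and the highest of many such values, so they describe only likeness. ELOVL5 and KPNA2 were lower with Dox, with log2 fold changes of -0.56 and -0.55 (adjusted p = 0.00924 and 0.0274, edgeR QL test), while HEATR3, with -0.35, did not pass (adjusted p = 0.149, same test). Without replicate 3 without Dox, ELOVL5 and KPNA2 did not pass either, and KPNA2 also did not pass without replicate 2 with Dox or under library totals alone.

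**Figure D5:**
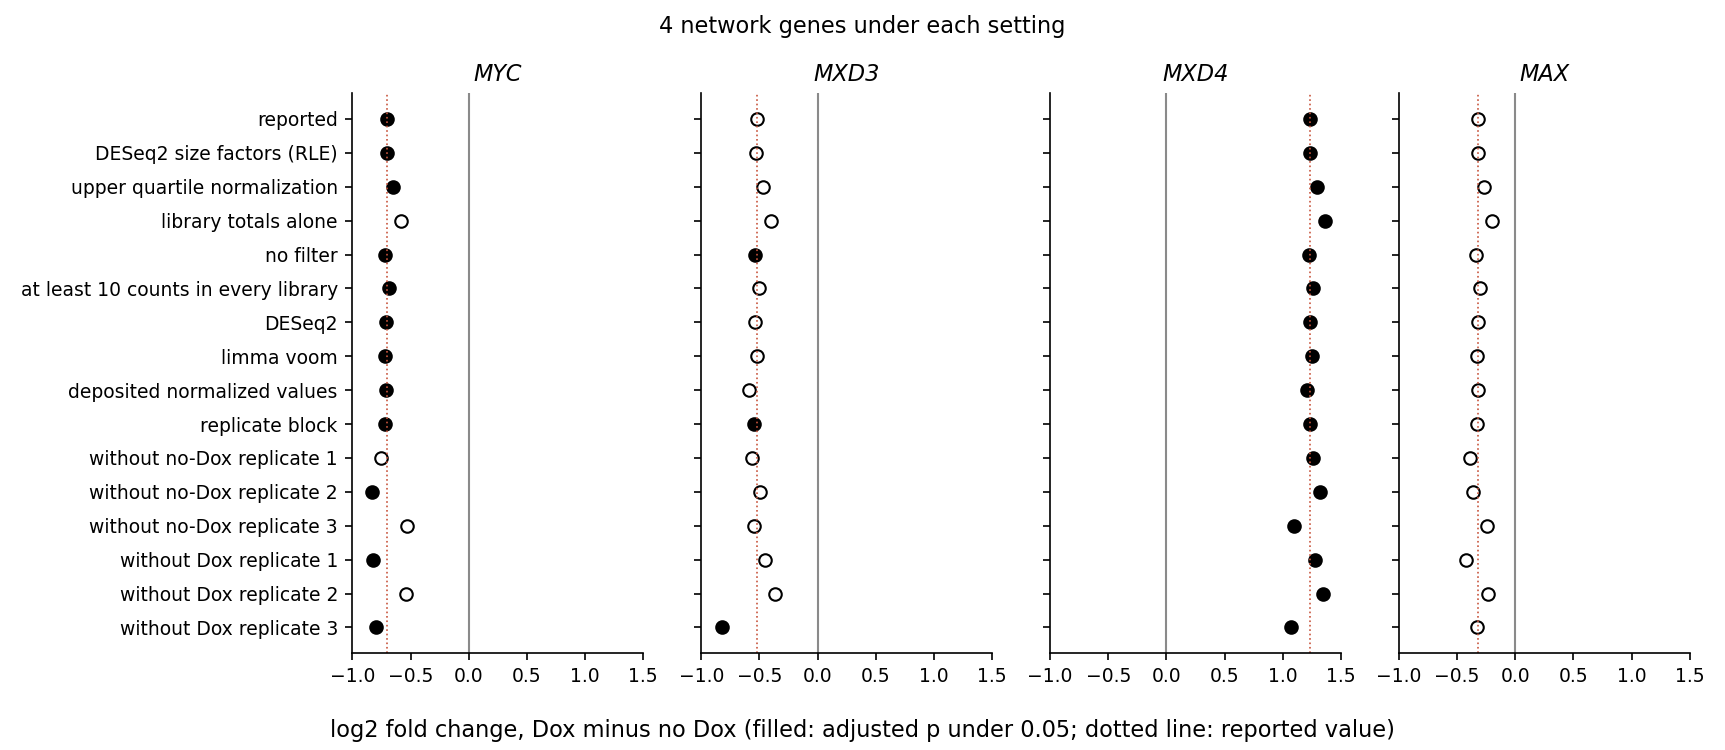
Log2 fold change (x axis) of MYC, MXD3, MXD4 and MAX as reported and under each of the 15 alternative settings (rows). Filled points have an adjusted p under 0.05, and the dotted line marks the reported value; MXD4 is filled in every row, MYC is open in 4 rows, MXD3 is filled in 3 and MAX is open in all.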

How the data were processed

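RNA-seq libraries of 22Rv1-ABHD5 cells (3 without Dox, 3 with Dox) were prepared with a QuantSeq 3′ kit, which reads the 3′ end of transcripts; the paper names the REV and the sample labels the FWD version, and use of strand in counting is not given in the sources used here. The authors mapped reads to hg38 with STAR (HTSeq is among the tools in the submitters' processing notes) and deposited raw counts per gene symbol. They also deposited, per library, a normalized signal whose scaling is not given; it served as an alternative, on log2(value + 1) with limma.

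Rows naming no gene (32.5% to 39.5% of listed reads on no gene, 3.05% to 3.37% ambiguous) were left out. Counts were tested with edgeR 4.0.16 in R 4.3.3 (TMM, genes kept by filterByExpr, quasi-likelihood F test, threshold of 0.05 on p adjusted by Benjamini-Hochberg over 12233 genes). CPM are TMM-normalized. Standard errors are the log2 fold change over the square root of F. Within each condition all pairs of libraries differed beyond sampling noise (chi-square per degree of freedom 4.35 to 12.2). Limits at 3 counts cover counting error only, as reads carry no molecular identifiers. The reported edgeR fit, DESeq2 and limma voom were run on simulated counts, and the outcome is not given here. In those counts fewer genes were changed than were called in these data. The ratios, lists, correlations and motif searches were not run on simulated counts.

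The members and lists were chosen with earlier results of these data known. The lists were compiled by hand, and the hallmark list was not checked against a release; 2 genes were found under an older symbol, and 1 listed marker is not reported here. All 10 members are named, with up to 2 called genes per direction of each list, those of lowest adjusted p, the single members of the MLX branch, ABHD5 and the 3 genes most like MYC; other genes were chosen after their values were seen. Coordinates are from GENCODE 44 (hg38) and promoters from RefSeq. Alternatives used DESeq2 1.42.0, limma 3.58.1, other normalizations and filters, leaving out single libraries, and the replicate number as a block.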

Additional observations from a re-analysis of the deposited data

How the results depend on the processing

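Each result was recomputed under 15 alternatives. The log2 fold changes of MXD4 (1.07 to 1.36) and ABHD5 (0.81 to 1.06), the number of genes past the threshold (2181 to 3537, reported 3125) and the number of network list genes past it (39 to 58, reported 52) kept their side or stayed within 1.5 times. MAX, MXI1, MGA and MYCL passed in none of their alternatives; MYCL was not in the test that required at least 10 counts in every library. The number of members past the threshold was 2 and became 3 with the replicate block, without a filter and under library totals alone. It was 1 to 3 with single libraries left out: 1 without replicate 1 or 3 without Dox or replicate 2 with Dox, where MYC did not pass, and 3 without replicate 3 with Dox, where MXD3 did. Apart from the filter and the libraries left out, the cause was not tested. Replicate numbers were not taken as pairs, as deviations of same-numbered libraries correlated with r of -0.01, 0.23 and 0.09; with the replicate block 3537 genes, 3 members (MYC, MXD4 and MXD3, the last at -0.55, adjusted p = 0.0364) and 58 list genes passed, among them 1 higher classical target, and ABHD5 had a log2 fold change of 0.89. MYC rested on 28 to 128 counts per library, and the part of depth in its call was not tested.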
